A study of Mus musculus with 16 samples.

Results

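The growth hormone receptor and STAT5 pathway was followed through 10 genes: the receptors Ghr and Prlr, the kinase gene Jak2, the transcription factor genes Stat5a and Stat5b, the feedback inhibitors Socs2, Socs3 and Cish, and the repressors Bcl6 and Cux2. Members were the probe sets whose only gene symbol is 1 of these names. Of the 10 genes, 9 were matched, by 24 of the 45101 probe sets on the array, and Prlr was not analysed here. RNA of 16 pieces of mouse liver was measured on Affymetrix 3′ expression arrays, and the deposited values are log2 intensities after RMA, so that a difference of 1 is a 2-fold difference.

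All samples came from male C3H/HeJ mice. By the series design each mouse had received 1 injection of the liver carcinogen diethylnitrosamine, at 10 or 90 µg per g body weight and at 2 or 6 weeks of age. The age at death was not given in the sources used here. The 7 Ctnnb1-mutated tumours (mutated in the gene of beta-catenin) and the 3 phenobarbital controls came from mice on 0.05% phenobarbital, a barbiturate that induces drug metabolism in liver through the receptor CAR. The labels give 27 weeks of it in drinking water, and other texts of the series give other courses. The 3 Ha-ras-mutated tumours and the 3 untreated controls came from mice without phenobarbital. Each mutation occurs with 1 treatment only, so that effects of mutation and of phenobarbital on a tumour cannot be told apart. The carcinogen dose and age at injection are not given here by group. If they differed between the arms, their effects could not be told apart from those of mutation or phenobarbital, also between the control groups. The labels do not say which samples came from separate animals, and p-values measure the spread between these samples.

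Growth hormone binds its receptor and activates the receptor-bound kinase JAK2, which phosphorylates STAT5a and STAT5b. In liver these factors enter the nucleus, bind paired TTC and GAA elements and drive Igf1, Igfals and many sex-biased genes. SOCS2, SOCS3 and CIS, the product of Cish, are made in response and dampen the signal. BCL6 competes with STAT5 for its sites and is more abundant in male liver, while CUX2 is a female-biased repressor of male-biased genes.

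The 3′ end of Gapdh read 2.7 log2 units above its 5′ end in phenobarbital control 6, a sign of RNA quality, and this gap lay between -0.15 and 0.32 in the other 15 arrays. Results that use the phenobarbital controls are therefore also given without this array where it matters. The tissue label was borne out by hepatocyte markers, with Alb between 14.86 and 15.06 log2 units across arrays.

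Of the 9 genes, 1 passed in the Ha-ras tumours against their controls, 0 in the Ctnnb1 tumours, 2 in the difference between these changes, 0 between the control groups and 3 between the tumour types. The threshold was an adjusted p (Benjamini-Hochberg) under 0.05 in limma over all 18193 genes. Over all genes the shares that passed were 13.5%, 12%, 5.43%, 0.214% and 15.1% in the same order. The median log2 change of the 9 genes was -0.33 in the Ha-ras tumours, beside -0.04 over all genes, and -0.18 in the Ctnnb1 tumours, beside -0.03.

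**Figure D1:**
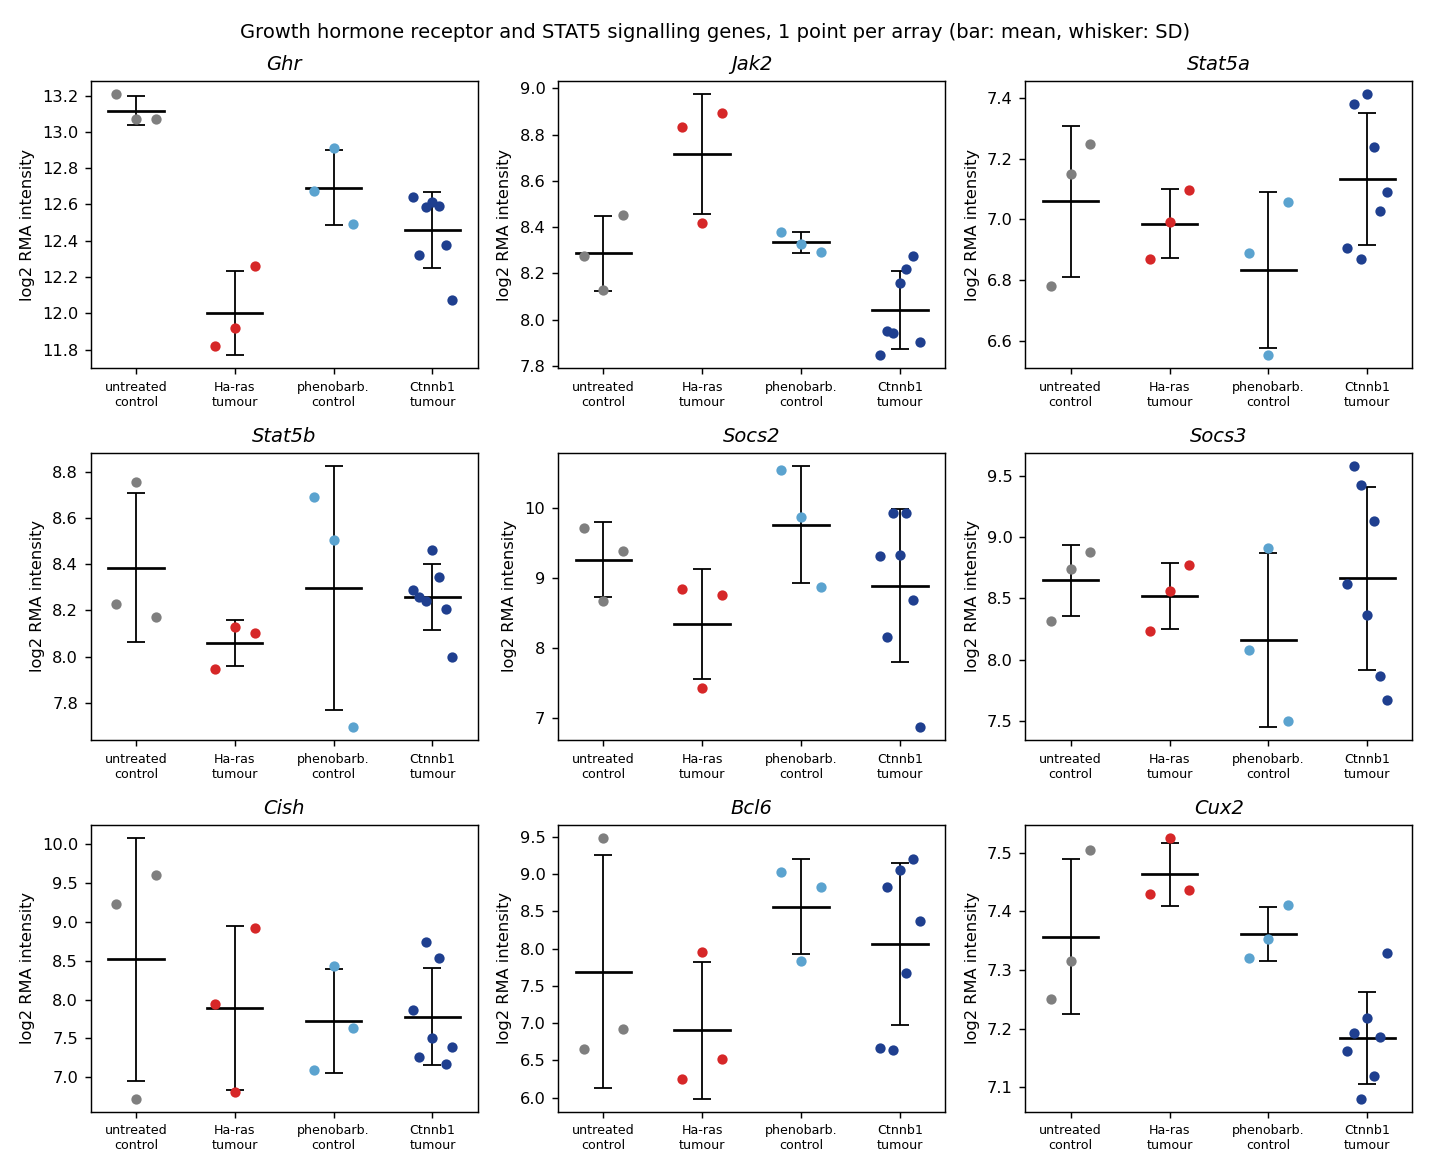
Log2 RMA intensity of the 9 matched genes in each of the 16 arrays (1 point per array), by group, with the group mean as a bar and the SD as a whisker; axes differ between panels. Ghr is high in all 3 untreated controls and low in all 3 Ha-ras tumours, while Socs2, Cish and Bcl6 spread over more than 1 log2 unit within every group.

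The motif that STAT5 binds is shown for the feedback genes, because Cish, Socs3 and Bcl6 varied most between arrays of 1 group together with Socs2. The letters searched were TTCNNNGAA, which read the same on both strands, in windows from 250 bases before to 50 bases after each start site (RefSeq, GRCm38.p6). Capitals mark the fixed letters, and every sequence is written 5′ to 3′ on the strand of the gene.
Cish, chr9:107296649-107296688, plus strand: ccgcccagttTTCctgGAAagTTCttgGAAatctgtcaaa
Socs3, chr11:117969502-117969530, minus strand: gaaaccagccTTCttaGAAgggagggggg
Bcl6, chr16:23988952-23988980, minus strand: agcaaattagTTCtcaGAAttccagaggc

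The Cish stretch holds 2 copies of the motif, the first beginning at base 1 of the transcript and the second at base 12. In Socs3 the match begins 154 bases before the start, and in the first Bcl6 window it begins 118 bases before it. The other Bcl6 window, around a start site further inside the gene, holds 3 matches, TTCCTGGAA, TTCTGTGAA and TTCCGGGAA, at 168, 122 and 88 bases before that start. Of all 32851 windows, 8.3% hold the motif and 0.457% hold 2 or more copies. Among the 16 windows of the members in the table, 5 hold it: those described and 1 of Prlr. The windows of Ghr, Jak2, Stat5a, Stat5b and Cux2 hold no such letters, and Socs2 was not searched. A match describes the letters and is not evidence of binding.

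Ghr, the receptor gene, was lower in the Ha-ras tumours than in liver of untreated mice. The 3 Ha-ras tumours had Ghr levels of 11.82, 11.92 and 12.26 log2 units, and the 3 untreated controls had 13.21, 13.07 and 13.07. No tumour reached a control, a separation in this direction found for 18.5% of all genes. Ghr fell by 1.12 on the log2 scale (SE 0.16, limma adjusted p = 0.000195), a 2.17-fold lower level. Among all genes, 6.33% passed in this direction, and Ghr was the only member that did.

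The other Ghr probe sets gave the same direction. Probe set 1451501_a_at had 9.72, 10.12 and 10.79 in the Ha-ras tumours against 12.26, 12.25 and 12.11 in the untreated controls, and fell by 1.99 (SE 0.36, limma adjusted p = 0.0019 over all 45037 probe sets). Probe set 1451871_a_at had 7.21, 7.22 and 7.19 against 8.85, 8.53 and 8.16, and fell by 1.31 (SE 0.38, limma adjusted p = 0.040). All 3 were thus lower without overlap, and they were the only 3 of the members' 24 probe sets that passed, where 8.91% of all probe sets did. Leaving out each array in turn kept the call in all 16 runs, with log2 changes between -1.25 and -1.03.

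**Figure D2:**
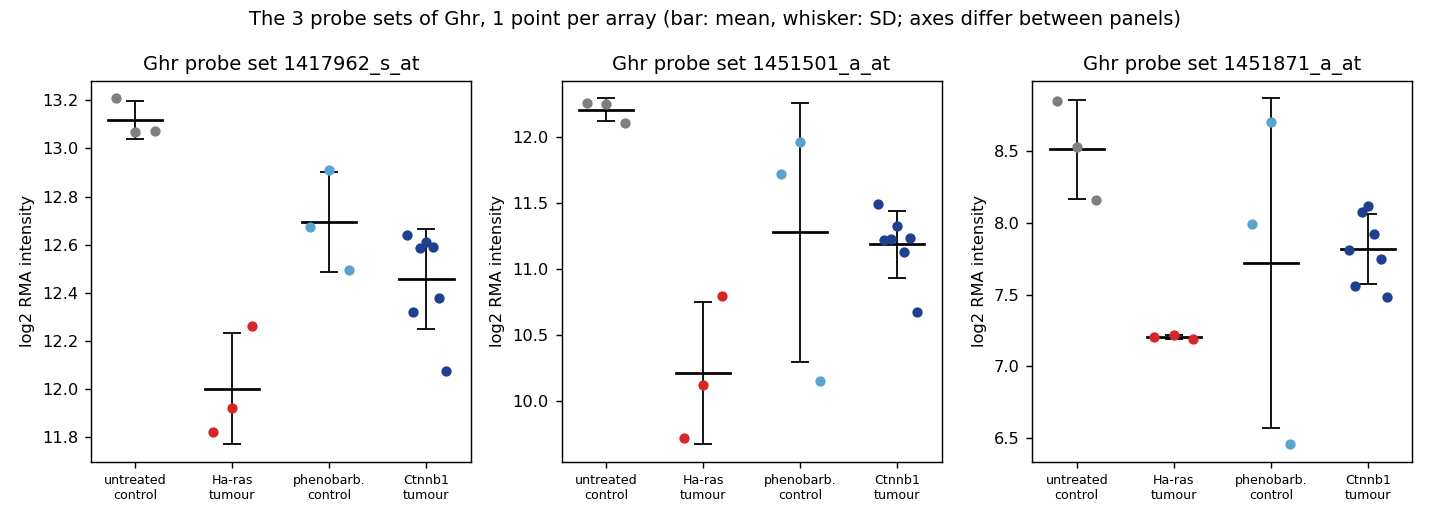
Log2 RMA intensity of the 3 probe sets of Ghr in each array, by group, with the mean as a bar and the SD as a whisker. The Ha-ras tumours lie below the untreated controls in each panel, and phenobarbital control 6 is the lowest array of its group in each.

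Fewer cells of a type and less RNA per cell cannot be told apart in such tissue samples. Of 8 measured hepatocyte markers, 1 passed in the Ha-ras tumours, Ahsg, which was higher by 0.76, and 0 were lower. Their mean level was 13.56 to 13.79 in the Ha-ras tumours and 13.65 to 13.76 in the untreated controls. Of 14 macrophage and Kupffer cell markers, 6 were lower and 0 higher, with mean levels of 6.58 to 8.54 in the tumours and 8.21 to 9.0 in the controls. Of 11 stellate cell and fibroblast markers, 4 were lower and 0 higher, with mean levels of 7.69 to 8.42 in the tumours and 8.30 to 8.72 in the controls. Over all genes 7.21% were higher and 6.33% lower in the Ha-ras tumours. The part of these cell types in the Ghr result was not tested.

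In the phenobarbital arm Ghr differed less between tumour and control on its brightest probe set. Levels in the 7 Ctnnb1 tumours ran from 12.08 through a median of 12.59 to 12.64, and those of the phenobarbital controls were 12.68, 12.91 and 12.49. Both groups overlapped, and the log2 change of -0.24 did not pass (SE 0.13, 95% interval -0.52 to 0.05, limma adjusted p = 0.285). Without phenobarbital control 6 it was -0.33 (limma adjusted p = 0.219). The change of Ghr differed between the tumour types by 0.88 (SE 0.21, limma adjusted p = 0.0208), being more negative in the Ha-ras tumours. Of all genes 2.14% passed in this direction. This call was lost without phenobarbital control 6, untreated control 1, Ha-ras tumour 1 or Ha-ras tumour 2, with limma adjusted p from 0.0514 to 0.0636. It was also lost on probe set 1451871_a_at (limma adjusted p = 0.154), while it held on 1451501_a_at. Phenobarbital control 6 read low on both, at 6.45 beside 7.99 and 8.71 on the former and 10.15 beside 11.71 and 11.96 on the latter. On 1451501_a_at all Ctnnb1 tumours, at 10.67 to 11.49, lay below controls 4 and 5. On 1451871_a_at, at 7.48 to 8.12, they all lay below control 5 only. These 2 probe sets were not fitted without control 6.

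All 3 phenobarbital controls lay below all 3 untreated controls in Ghr. The log2 change was -0.42 (SE 0.16, limma adjusted p = 0.261) and did not pass. Groups failed to overlap in this way for 9.44% of all genes. In order of mean level the groups ran from the Ha-ras tumours (12.001 ± 0.23, SD, n = 3) through the Ctnnb1 tumours (12.46 ± 0.21, SD, n = 7) and phenobarbital controls (12.69 ± 0.21, SD, n = 3) to the untreated controls (13.12 ± 0.08, SD, n = 3). Only the last step of this order had no overlap. Between the tumours, Ghr was higher in the Ctnnb1 group by 0.46 (SE 0.13, limma adjusted p = 0.0308). That call was lost without Ctnnb1 tumour 1, 3, 4 or 5 or Ha-ras tumour 1 or 2, at limma adjusted p between 0.0528 and 0.182, and on the mean of the 3 probe sets (limma adjusted p = 0.0629).

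Jak2, the gene of the kinase that the receptor activates, passed in neither tumour type against its own controls, and the direction in the Ctnnb1 tumours depended on the probe set. The brighter probe set, 1421066_at, is given first. The 3 Ha-ras tumours had 8.83, 8.42 and 8.89 log2 units, and their untreated controls had 8.28, 8.13 and 8.45. Tumour 2 lay within the range of the controls, and the log2 change of 0.43 missed the threshold (SE 0.15, 95% interval 0.12 to 0.74, limma adjusted p = 0.0628). It passed without Ha-ras tumour 2 (limma adjusted p = 0.0183), after median centring (limma adjusted p = 0.0485) and with array weights (limma adjusted p = 0.0414).

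The 7 Ctnnb1 tumours had Jak2 levels from 7.85 to 8.27 with a median of 7.95, and the phenobarbital controls had 8.38, 8.33 and 8.29. Every tumour was below every control, as for 6.64% of all genes, but the log2 change of -0.29 did not pass (SE 0.12, limma adjusted p = 0.135). On the dimmer probe set, 1421065_at, the change in the Ctnnb1 tumours was 0.45 and that in the Ha-ras tumours 0.50, and neither passed. The Ctnnb1 tumours had a mean of 6.73 there, below phenobarbital controls 4 and 5 at 6.86 and 6.87. Control 6, at 5.12, was the only one below that mean, so that the sign of 0.45 rested on this array. On the brighter probe set the changes in the tumour types differed by -0.72 (SE 0.19, limma adjusted p = 0.0358), a direction in which 3.29% of all genes passed. In 10 of 16 runs with 1 array left out this difference missed the threshold, at limma adjusted p between 0.0516 and 0.102. The arrays concerned were Ctnnb1 tumours 1, 2 and 3, phenobarbital controls 4, 5 and 6, untreated controls 1 and 2, and Ha-ras tumours 1 and 3.

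Set directly against each other, every Ctnnb1 tumour had less Jak2 than every Ha-ras tumour. Jak2 was lower in the Ctnnb1 tumours by 0.67 on the log2 scale, a 1.60-fold difference (SE 0.12, limma adjusted p = 0.00117). Of all genes 7.9% passed as lower. Lack of overlap in this direction occurred in 8.57% of all genes. The call held in all 16 runs with 1 array left out. The dimmer Jak2 probe set 1421065_at gave -0.58 and did not pass (limma adjusted p = 0.227). On it the Ha-ras tumours had 7.44, 7.04 and 7.45 and the Ctnnb1 tumours 6.45 to 6.94, again without overlap. Phenobarbital control 6 stood at 5.12 on this probe set, beside 6.86 and 6.87 in the other phenobarbital controls, and the difference between the tumour changes was -0.05 there (limma adjusted p = 0.975).

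**Figure D3:**
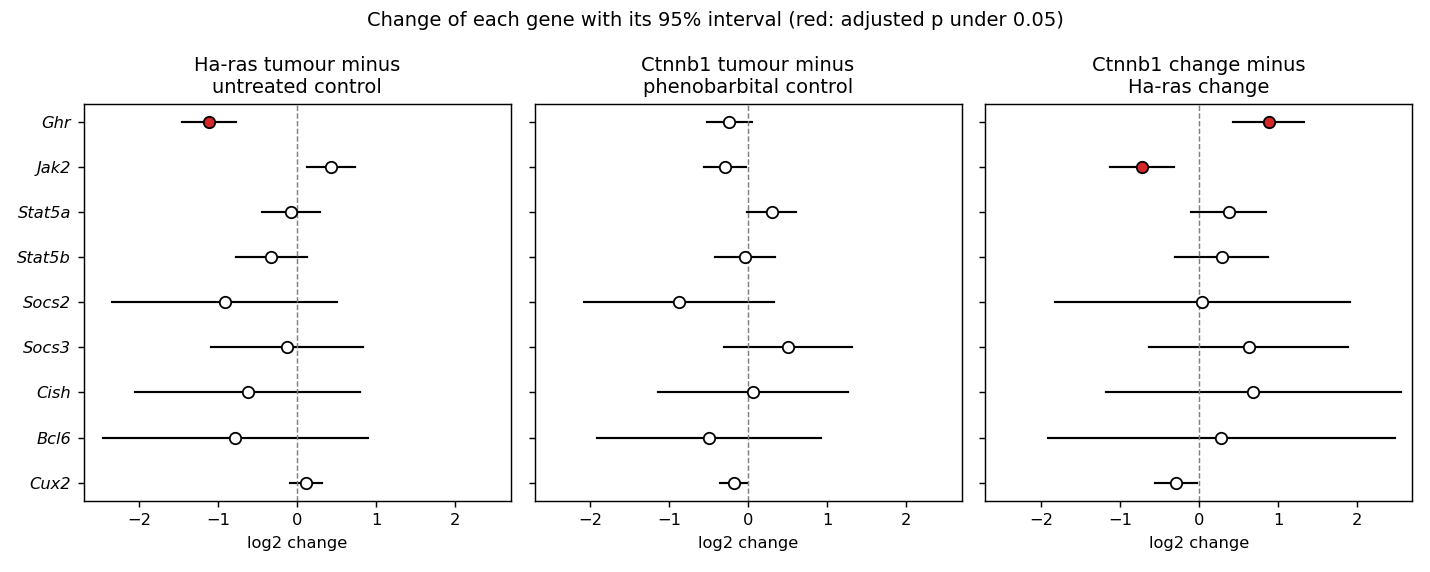
Log2 change of each gene in the Ha-ras tumours, in the Ctnnb1 tumours and in the difference between them, with 95% intervals from limma; filled red points passed. Ghr passed in the first panel at -1.12, Ghr and Jak2 in the third at 0.88 and -0.72, and the intervals of Socs2, Cish and Bcl6 are wider than 2 log2 units in every panel.

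Stat5a and Stat5b, the genes of the transcription factors, passed in none of the 5 comparisons. Stat5a had 6.87, 6.99 and 7.10 in the Ha-ras tumours and 6.78, 7.15 and 7.25 in the untreated controls. Its log2 change there was -0.07, with a 95% interval of -0.44 to 0.29. In the Ctnnb1 tumours Stat5a ran from 6.87 to 7.41 with a median of 7.09, against 6.89, 6.55 and 7.06, a log2 change of 0.30 with a 95% interval of -0.01 to 0.61.

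Stat5b had 7.94, 8.13 and 8.10 in the Ha-ras tumours, all below the untreated controls at 8.23, 8.76 and 8.17. The log2 change was -0.33 (95% interval -0.77 to 0.12, limma adjusted p = 0.367). Such separation in this direction was found for 18.5% of all genes. The Ctnnb1 tumours ran from 8.0 to 8.46 in Stat5b, with a median of 8.26, and the phenobarbital controls were at 8.69, 8.51 and 7.70, the lowest being control 6. The log2 change of -0.04 had a 95% interval of -0.42 to 0.34, and without control 6 it was -0.34 (limma adjusted p = 0.189). The 2 Stat5b probe sets followed each other weakly, at r = 0.16 over 16 arrays, a description.

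Socs2, a feedback inhibitor that is itself induced by STAT5, spanned 3.06 log2 units among the 7 Ctnnb1 tumours. The lowest was 6.87, the median 9.32 and the highest 9.94, while the phenobarbital controls were at 10.54, 9.86 and 8.87. Its log2 change of -0.87 did not pass (95% interval -2.08 to 0.33, limma adjusted p = 0.356). Without phenobarbital control 6 the Socs2 change was -1.31 and did not pass either. The Ha-ras tumours had 8.84, 7.43 and 8.75 and the untreated controls 9.72, 8.67 and 9.39. The groups overlapped by 2 of the tumours lying above the lowest control, and the log2 change of -0.92 did not pass (95% interval -2.34 to 0.51, limma adjusted p = 0.438). The second brightest Socs2 probe set followed the first at r = 0.969 over 16 arrays. The dimmer ones followed it at r = 0.703, 0.691, 0.679 and -0.308, the last at a mean level of 2.82.

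Socs3, which is also induced by cytokines that act through STAT3, ran from 7.67 to 9.58 in the Ctnnb1 tumours with a median of 8.62. The phenobarbital controls had 8.08, 8.91 and 7.50, and the log2 change of 0.50 did not pass (95% interval -0.31 to 1.32). Without phenobarbital control 6 it was 0.17. In the Ha-ras tumours Socs3 had 8.23, 8.56 and 8.77, inside or near the range of the untreated controls at 8.32, 8.74 and 8.88. That log2 change was -0.13 with a 95% interval of -1.09 to 0.84. Its other probe sets followed at r = 0.916 and 0.962 over 16 arrays.

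Cish, the gene of the inhibitor CIS, had 9.23, 6.72 and 9.60 in the 3 untreated controls, a range of 2.88 log2 units inside 1 group. The Ha-ras tumours had 7.94, 6.81 and 8.92, the phenobarbital controls 7.10, 8.43 and 7.63, and the Ctnnb1 tumours 7.17 to 8.75 with a median of 7.51. No group stood apart from another. The log2 changes were -0.63 in the Ha-ras tumours (95% interval -2.05 to 0.80) and 0.06 in the Ctnnb1 tumours (95% interval -1.14 to 1.27), and neither passed.

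Bcl6, the gene of a repressor that opposes STAT5, had 6.66, 9.49 and 6.92 in the same untreated controls, so that the array lowest in Cish was highest in Bcl6. The Ha-ras tumours had 6.25, 7.96 and 6.51, the phenobarbital controls 9.03, 7.84 and 8.83, and the Ctnnb1 tumours 6.65 to 9.21 with a median of 8.38. The log2 changes of Bcl6 were -0.78 in the Ha-ras tumours (95% interval -2.46 to 0.89) and -0.50 in the Ctnnb1 tumours (95% interval -1.92 to 0.92). These also did not pass.

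These 4 genes varied more within groups than most genes on the array. The SD within groups, in log2 units, was 0.93 for Socs2, 0.62 for Socs3, 0.93 for Cish and 1.10 for Bcl6. These values lie at percentiles 99.3, 97.0, 99.2 and 99.6 of all 18193 genes, whose median was 0.20. The within-group SD of Ghr (0.20) and Jak2 (0.17) lay at percentiles 50.6 and 37.7. The tests of the feedback genes could therefore resolve only large changes, and a missed threshold does not show that their levels were alike.

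Cish and Bcl6 ran opposite to each other across the arrays. Pearson's r over the 16 arrays was -0.756 (permutation p = 0.00127, adjusted p = 0.0457 over the 36 pairs of members) and Spearman's rho was -0.776 (permutation p = 0.00076, adjusted p = 0.0157). Without untreated controls 1 and 3, the arrays farthest from the median in Cish, r was -0.739. With group means removed r was -0.853, and among the 7 Ctnnb1 tumours alone it was -0.797. The other Bcl6 probe set gave r = -0.731. Among the 18192 other genes, Bcl6 had the 3rd most negative correlation with Cish, and Cish the 7th most negative with Bcl6. The labels do not say whether tumours and controls share animals, and arrays that share one would not be independent.

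**Figure D4:**
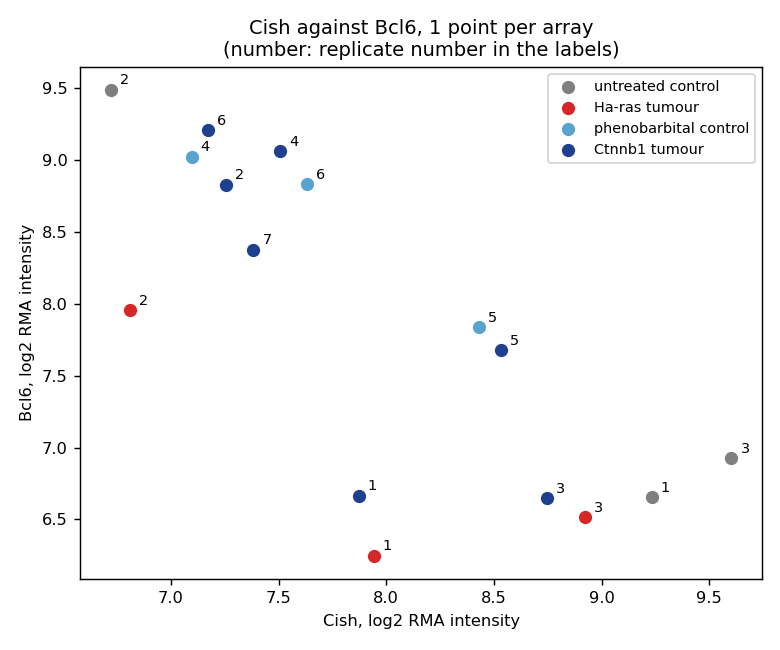
Log2 RMA intensity of Bcl6 against that of Cish, 1 point per array, coloured by group and numbered by the replicate number of the label. The 5 arrays with Cish of 8.53 or more have Bcl6 of 7.68 or less, and the array with the lowest Cish (6.72) has the highest Bcl6 (9.49), with members of several groups along the whole range.

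The only other pair to pass on either measure was Jak2 with Cux2. Spearman's rho was 0.768 (permutation p = 0.00087, adjusted p = 0.0157) and r was 0.667 (permutation p = 0.00389, adjusted p = 0.0700) over 16 arrays. With group means removed r was -0.0692, so the relation lay between the groups. Ghr and Socs2 had r = 0.614 (permutation p = 0.0111, adjusted p = 0.133) and rho = 0.594 (permutation p = 0.0174, adjusted p = 0.157), which did not pass. With group means removed their r was 0.744, and without Ha-ras tumours 1 and 2 it was 0.578. Ctnnb1 tumour 7 was the lowest of its group in both, at 12.08 for Ghr and 6.87 for Socs2.

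For the 4 variable genes the 3 most similar other genes by Pearson's r over the 16 arrays were taken as a description. Zfp397, Adamts7 and Zfp790 were most like Socs2, at r = 0.894, 0.869 and 0.864. Arid5b, Lonrf1 and Hhex followed Cish at r = 0.838, 0.832 and 0.812. Pheta2, Htr1d and Acot5 followed Bcl6 at r = 0.786, 0.784 and 0.780. Mrpl43, Ctsh and Dtnbp1 followed Socs3 at r = 0.797, 0.776 and 0.771. No other member was among them.

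Cux2, the female-biased repressor, varied little. The 3 Ha-ras tumours had 7.43, 7.53 and 7.44 log2 units and the Ctnnb1 tumours 7.08 to 7.33, with a median of 7.19. The groups did not overlap, as for 8.57% of all genes in this direction. Cux2 was lower in the Ctnnb1 tumours by 0.28 on the log2 scale, a 1.21-fold difference (SE 0.08, limma adjusted p = 0.0264). The call was lost without any 1 of the 3 Ha-ras tumours (limma adjusted p 0.0561 to 0.126), after repeated quantile normalization (0.0583) and with trended, robust eBayes (0.0547). Against their own controls the changes were 0.11 in the Ha-ras tumours and -0.18 in the Ctnnb1 tumours, and neither passed. The other Cux2 probe sets, at mean levels of 3.78 and 2.90, gave changes of -0.001 and -0.15 between the tumours.

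Other receptors, kinases and transcription factors of the JAK-STAT system included genes that passed in both tumour types. Of 15 measured, 4 were higher and 2 lower in the Ha-ras tumours, and 2 were higher and 3 lower in the Ctnnb1 tumours. Over all genes 7.21% were higher and 6.33% lower in the Ha-ras tumours, and 6.07% higher and 5.97% lower in the Ctnnb1 tumours. Lepr, the leptin receptor gene, had 8.63, 7.63 and 8.63 log2 units in the Ha-ras tumours against 5.28, 4.91 and 5.67 in the untreated controls. It rose there by 3.01 (SE 0.39, limma adjusted p = 8.6e-05), an 8.06-fold change.

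Lepr levels in the Ctnnb1 tumours were 4.04 to 5.44 against 7.24, 5.63 and 6.52 in the phenobarbital controls. The gene fell by 1.77 (SE 0.33, limma adjusted p = 0.00301). The changes of Lepr in the tumour types differed by -4.78 (SE 0.51, limma adjusted p = 3.88e-05), and all 3 calls held in 16 of 16 runs with 1 array left out. The other Lepr probe sets were dimmer, and the fall passed on none of them. On 1425644_at the rise was 3.43 and the change in the Ctnnb1 tumours -0.99. On 1425875_a_at these were 0.97 (limma adjusted p = 0.00113) and -0.41. On 1425873_a_at the changes were -0.03 and -0.10, and neither passed. The difference passed on 1425644_at and 1425875_a_at, at -4.42 and -1.38. On 1425873_a_at it was -0.08 and did not pass.

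Ifngr1, the gene of a chain of the interferon gamma receptor, rose in both, by 1.71 in the Ha-ras tumours (SE 0.16, limma adjusted p = 4.59e-06) and by 1.40 in the Ctnnb1 tumours (SE 0.14, limma adjusted p = 4.51e-05). Il6st, the gene of the shared gp130 chain of interleukin 6 family receptors, fell by 0.996 in the Ha-ras and 0.999 in the Ctnnb1 tumours (limma adjusted p = 0.00526 and 0.00266). The mean of its 4 probe sets fell short of the threshold in the Ctnnb1 tumours (-0.32, limma adjusted p = 0.205). Il6st in the Ctnnb1 tumours, and Ifngr2 and Osmr in the Ha-ras tumours, were named after their values were seen, to complete the counts.

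Ifngr2 rose by 0.87 in the Ha-ras tumours, a call lost without untreated control 1, 2 or 3 or Ha-ras tumour 1 or 2 (limma adjusted p 0.0814 to 0.121), and by 1.10 in the Ctnnb1 tumours. Without phenobarbital control 6 its rise in the Ctnnb1 tumours was smaller, at 0.71. On the other Ifngr2 probe set the changes were 0.41 in the Ha-ras and 0.24 in the Ctnnb1 tumours, and neither passed. Osmr, the oncostatin M receptor gene, rose by 0.70 in the Ha-ras tumours, but not on the mean of its probe sets (0.14). Lifr fell by 1.24 in the Ha-ras tumours, a call lost without untreated control 2 or Ha-ras tumour 1 (limma adjusted p 0.0527 and 0.0683). Its other probe sets gave -0.50 and -0.66 and did not pass (limma adjusted p = 0.19 and 0.201). Il6ra fell by 1.03 in the Ctnnb1 tumours, a call lost without Ctnnb1 tumour 1 or 4 or any 1 of the phenobarbital controls (limma adjusted p 0.0519 to 0.135). Its other, dimmer probe set gave -0.007 (limma adjusted p = 0.981).

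Among 16 other SOCS proteins and phosphatases that limit the pathway, 2 were higher and 0 lower in the Ha-ras tumours, and 0 higher and 1 lower in the Ctnnb1 tumours. These shares were near those of all genes, of which 13.5% passed in the Ha-ras and 12% in the Ctnnb1 tumours. Socs5 had 8.43, 8.85 and 8.36 log2 units in the Ha-ras tumours against 7.07, 7.0 and 6.94 in the untreated controls, and rose by 1.54 (SE 0.21, limma adjusted p = 0.000108). In the Ctnnb1 tumours it ran from 6.36 to 7.34 against 7.20, 7.46 and 7.33, and fell by 0.64 (SE 0.17, limma adjusted p = 0.0266). The fall was lost without phenobarbital control 5 or 6 (limma adjusted p 0.0839 and 0.0824), while on its other probe set Socs5 fell by 1.0 (limma adjusted p = 0.00545). The changes of Socs5 differed by -2.18 (SE 0.27, limma adjusted p = 0.000148), which held in 16 of 16 runs. Pias1, the gene of an inhibitor of activated STATs, rose by 0.59 in the Ha-ras tumours (limma adjusted p = 0.0105).

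**Figure D5:**
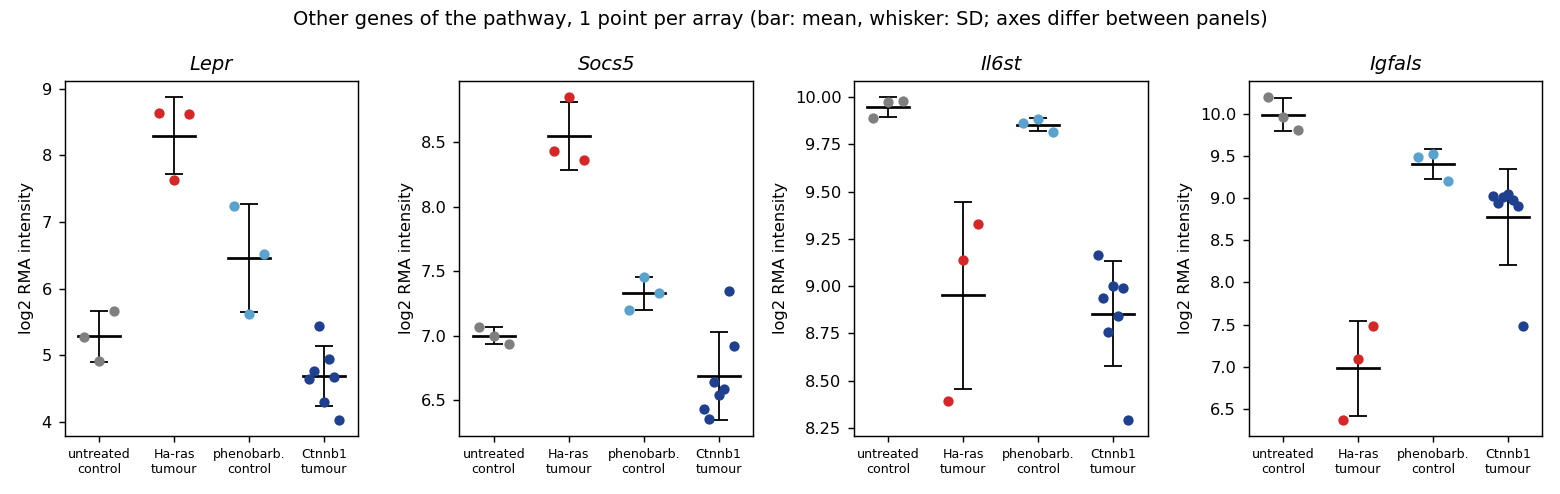
Log2 RMA intensity of Lepr, Socs5, Il6st and Igfals in each array, by group, with the mean as a bar and the SD as a whisker; axes differ between panels. Lepr and Socs5 are highest in the Ha-ras tumours, Il6st is lower in both tumour types than in both control groups, and Igfals is lowest in the Ha-ras tumours and in Ctnnb1 tumour 7.

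Of 13 measured adaptors and kinases downstream of the receptor, 1 was higher in each tumour type and 0 were lower, a share near that of all genes. Shc1, an adaptor gene, rose by 0.60 in the Ha-ras tumours (limma adjusted p = 0.0022), and missed the threshold on its most variable probe set. Nmi, the gene of a STAT-binding protein, rose by 0.71 in the Ctnnb1 tumours (limma adjusted p = 0.0239), a call lost without phenobarbital control 6 (limma adjusted p = 0.153).

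Between the control groups 1 of the 13 was higher, where 0.214% of all genes passed. Irs1, the gene of an insulin receptor substrate, had 10.24, 10.26 and 10.13 log2 units in the phenobarbital controls against 9.01, 9.53 and 8.91 in the untreated controls. It was higher by 1.06 (SE 0.18, limma adjusted p = 0.0315). The call was lost without phenobarbital control 4 or 6 or untreated control 1 or 3 (limma adjusted p 0.0745 to 0.108), and with the compared arrays alone. Between the tumour types 2 of the 13 were higher and 1 lower in the Ctnnb1 tumours, beside 7.21% and 7.9% of all genes. Irs1 was higher there by 1.34 (SE 0.15, limma adjusted p = 1.21e-05), at 10.26 to 10.81 against 9.10, 9.35 and 8.92, and held in 16 of 16 runs with 1 array left out. Src, a kinase gene, was higher by 0.81 (limma adjusted p = 0.0376), a call lost in 6 of 16 such runs, without Ctnnb1 tumour 1, 2, 4 or 6 or Ha-ras tumour 2 or 3 (limma adjusted p 0.0536 to 0.170). The lower gene was Shc1, at -0.37 (limma adjusted p = 0.0158), a call lost without Ha-ras tumour 2 or 3 (limma adjusted p 0.061 and 0.066).

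Of 7 measured genes listed here as dependent on growth hormone and STAT5 in both sexes, 2 fell in the Ha-ras tumours. In the Ctnnb1 tumours 1 fell, and 0 rose in either tumour type. The dependence of each listed gene was not tested, and the list shares Hnf4a with the hepatocyte markers. Over all genes 6.33% were lower in the Ha-ras and 5.97% in the Ctnnb1 tumours. Igfals, whose product carries IGF1 in blood, had 6.38, 7.09 and 7.49 log2 units in the Ha-ras tumours against 10.20, 9.96 and 9.81. It fell by 3.004 (SE 0.35, limma adjusted p = 3.1e-05), an 8.02-fold lower level. The groups did not overlap, as for 18.5% of all genes in this direction. The change of Igfals in the Ctnnb1 tumours was -0.63 and did not pass (limma adjusted p = 0.180). Its changes differed by 2.37 (SE 0.46, limma adjusted p = 0.00525).

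Egfr, the gene of the epidermal growth factor receptor, fell by 1.80 in the Ctnnb1 tumours (SE 0.23, limma adjusted p = 0.000202), from 11.27 to 12.33 in the controls to 9.42 to 10.37 in the tumours. On the mean of its probe sets the fall was 0.76. In the Ha-ras tumours Egfr fell by 1.11 (limma adjusted p = 0.0114), a call lost without untreated control 2 or Ha-ras tumour 2 (limma adjusted p 0.0607 and 0.0581). Igf1, the main growth hormone target, had log2 changes of -1.24 in the Ha-ras tumours (SE 0.67, limma adjusted p = 0.271) and -1.37 in the Ctnnb1 tumours (SE 0.57, limma adjusted p = 0.131). Neither passed, and Igf1 was named after its values were seen.

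Male-biased genes under growth hormone control were lower in both tumour types. Over all genes 6.33% were lower in the Ha-ras and 5.97% in the Ctnnb1 tumours. Of 18 measured male-biased genes, 13 fell and 0 rose in the Ha-ras tumours, and 8 fell and 0 rose in the Ctnnb1 tumours. Their median log2 changes were -2.02 and -0.95, beside -0.04 and -0.03 over all genes. Susd4 fell by 2.68 in the Ha-ras tumours (SE 0.32, limma adjusted p = 4.31e-05) and fell by 2.32 in the Ctnnb1 tumours (SE 0.27, limma adjusted p = 0.00014). Slco1a1, the gene of an organic anion transporter, fell by 4.23 in the Ha-ras tumours (SE 0.82, limma adjusted p = 0.00218). Slco1a1 fell by 2.42 in the Ctnnb1 tumours, a call lost without Ctnnb1 tumour 2 or 7 or any 1 of the phenobarbital controls (limma adjusted p 0.0519 to 0.113).

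Cyp4a12a, the gene of a fatty acid hydroxylase, separated the tumour types. It had 7.35, 8.57 and 9.61 log2 units in the Ha-ras tumours and 12.24, 12.28 and 12.39 in the untreated controls, a log2 change of -3.8 (SE 0.39, limma adjusted p = 9.58e-06). The Ctnnb1 tumours, at 11.41 to 12.19, overlapped with the phenobarbital controls, at 11.20 to 12.05, and the change was -0.04 (limma adjusted p = 0.956). Its changes differed by 3.75 (SE 0.51, limma adjusted p = 0.000329), which held in 16 of 16 runs. Cyp4a12a shares sequence with Cyp4a12b, so that the gene measured is uncertain.

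Female-biased genes under growth hormone control were mixed: of 17 measured, 5 rose and 1 fell in the Ha-ras tumours, and 2 rose and 0 fell in the Ctnnb1 tumours. Over all genes 7.21% were higher and 6.33% lower in the Ha-ras tumours, and 6.07% higher and 5.97% lower in the Ctnnb1 tumours. Abcd2, the gene of a peroxisomal transporter, had 8.36, 8.46 and 8.44 log2 units in the Ha-ras tumours against 5.26, 4.62 and 5.25, a rise of 3.38 (SE 0.40, limma adjusted p = 3.63e-05). Cyp17a1, the gene of a steroid hydroxylase, had 8.62, 8.83 and 6.81 against 5.61, 5.21 and 5.26, a rise of 2.73 (SE 0.43, limma adjusted p = 0.000445). Cyp2b9 rose by 3.69 (SE 0.76, limma adjusted p = 0.00351), and reads sequence shared in the Cyp2b family. In the Ctnnb1 tumours the changes of these 3 genes were -0.16, -0.34 and -1.01, and none passed. Their changes differed between the tumour types by -3.54, -3.07 and -4.70 (limma adjusted p = 0.000657, 0.00364 and 0.0101). Directly between the tumours, Abcd2 and Cyp17a1 had log2 changes of -3.35 and -3.11 (limma adjusted p = 4.27e-06 and 1.92e-05). Cyp2b9, at -1.44, did not pass there (limma adjusted p = 0.161). Its levels were 9.02 to 11.78 in the phenobarbital controls and 6.18 to 7.76 in the untreated controls.

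The genes that rose in the Ctnnb1 tumours were Hao2 and Rtn4. Hao2 rose by 1.71, a call lost without Ctnnb1 tumour 1 or 6 or phenobarbital control 4 or 6 (limma adjusted p 0.0503 to 0.174). Rtn4 rose in the Ha-ras tumours too, by 0.87 (limma adjusted p = 0.0297), a call lost in 5 of 16 runs with 1 array left out. Its changes differed by 0.05, which did not pass (limma adjusted p = 0.965). In the Ctnnb1 tumours Rtn4 rose by 0.92, a call lost without phenobarbital control 6 (limma adjusted p = 0.0816). Without that control the list gave 1 gene higher and 1 lower in the Ctnnb1 tumours, the male-biased list 0 higher and 7 lower, and the JAK-STAT list 2 higher and 2 lower. The list of SOCS proteins and phosphatases then gave 0 and 0 in the Ctnnb1 tumours and, with the spread re-estimated, 4 higher and 0 lower in the Ha-ras tumours. The lower macrophage and stellate cell markers given beside Ghr moved with these lists in the Ha-ras tumours. In the Ctnnb1 tumours 3 of 14 macrophage markers and 5 of 11 stellate markers were lower. Their mean levels were 7.69 to 8.48 and 7.52 to 8.46, beside 8.39 to 9.05 and 8.30 to 8.71 in the phenobarbital controls. Of 12 endothelial markers 2 were lower in the Ctnnb1 tumours, with mean levels of 6.32 to 7.56 beside 7.52 to 7.88. Of 5 cholangiocyte markers 1 was lower. Without phenobarbital control 6 these last counts were 0 and 0. Of the hepatocyte markers 2 were lower in the Ctnnb1 tumours, Cps1 by 2.17 and Tat by 1.57, where 5.97% of all genes were lower. The part of these cells in the list results was not tested.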

How the data were processed

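The deposited values are log2 intensities per probe set, made by the authors with RMA in R 2.14.1, per the submitters' processing notes. All 45101 probe sets of 16 arrays were read without rescaling. Low values may be background, and the number of arrays limits the precision.

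Probe sets were named from the platform annotation, and 34945 had 1 symbol. Each of 18193 genes was represented by its brightest probe set. Promoter sequences came from RefSeq (GRCm38.p6). The group means of all arrays were fitted with limma 3.58.1 (lmFit, eBayes) in R 4.3.3, and 45037 probe sets without array controls in a separate fit. Calls use a Benjamini-Hochberg adjusted p under 0.05. The verbs rose and fell describe passing genes alone. Correlations used 100000 permutations.

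Simulated data over 18193 genes held 200 changed genes per comparison. At a log2 change of 1 the fit recovered 79 of 100 in the Ha-ras comparison and 84 of 100 in the Ctnnb1 comparison. In the difference between the tumour changes it recovered 60 of 100. All other genes were simulated without change and with independent noise, so that recovery on the real arrays may differ.

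Members, lists and tests were chosen with earlier results of these data known. Named were all members, up to 4 passing genes per list and comparison with the largest change, and the 3 genes most similar to each member with an SD of at least 0.5. The text gives a part of these, chosen after their values were seen. The correlation of their deviations did not settle whether same-numbered tumours and controls pair, with 0.0302, 0.399 and 0.238 in the Ha-ras arm. No block was used in the main fit. Alternatives were the arrays compared alone, replicate blocks, other probe set choices and normalizations, array weights, and each array left out. Lists without phenobarbital control 6, and other probe sets of list genes, were added after the data were seen. Hras is not analysed here.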

Additional observations from a re-analysis of the deposited data

Results flagged for a closer look

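The changes in the tumour types differed for 2 of the 9 genes, by the test of the difference itself, where 5.43% of all genes passed. For Ghr the change in the Ctnnb1 tumours exceeded that in the Ha-ras tumours by 0.88 log2 units (limma adjusted p = 0.0208). Ghr was lower in 3 of 3 Ha-ras tumours than in every untreated control, as were 18.5% of all genes. For Jak2 the difference was -0.72 (limma adjusted p = 0.0358). Jak2 was lower in 7 of 7 Ctnnb1 tumours than in every phenobarbital control, as were 6.64% of all genes. Without 1 array each, the Ghr call was lost in 4 of 16 runs and the Jak2 call in 10 of 16, and 0 to 2 members passed. On the dimmer Jak2 probe set the difference was -0.05, with phenobarbital control 6 at 5.12 beside 6.86 and 6.87 in the other phenobarbital controls. No array of the 7 Ctnnb1 tumours stood apart from the others in any of the 9 genes by Dixon's test, and groups of 3 were not tested.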

How the results depend on the processing

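The fall of Ghr in the Ha-ras tumours and the lower Jak2 of the Ctnnb1 tumours against the Ha-ras tumours kept their calls in all 16 runs without 1 array, and the latter was lost on the dimmer probe set. Over these runs the genes called numbered 1337 to 2219 in the Ctnnb1 tumours, 1698 to 3031 in the Ha-ras tumours, 648 to 1177 in the difference, 3 to 68 between controls and 1745 to 3301 between tumours, and the members 0 to 0, 1 to 2, 0 to 2, 0 to 0 and 1 to 3. With every probe set tested the calls were 3806, 4013, 1506, 68 and 4619. Array weights gave 3775 in the Ha-ras tumours, 1547 in the difference and 242 between controls, where the arrays compared alone gave 19.

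The replicate numbers were not taken as pairs: deviations of same-numbered samples correlated at 0.13, 0.0866 and -0.116 in the phenobarbital arm and at 0.0302, 0.399 and 0.238 in the other, and 1 of 3 and 2 of 3 tumours correlated best with their own number. With a fixed replicate block 255 genes passed in the Ctnnb1 tumours, against 397 without it on the same arrays, and 2 members passed in the Ha-ras tumours, the second being Socs2 (-0.92, limma adjusted p = 0.00838 with the block and 0.196 without it on the same arrays).

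The members that passed in the Ha-ras tumours also numbered 2 after median centring and with array weights. On the mean of a gene's probe sets and on its most variable one, 1 passed in the difference and 1 between the tumours. Signs turned only for changes that had not passed. On the mean these were Jak2 at 0.0773 in the Ctnnb1 tumours and -0.242 between controls, Stat5a at 0.0127 and Cux2 at -0.0112 in the Ha-ras tumours, and Socs2 at -0.0512 in the difference. On the most variable or another single probe set they were, in the Ctnnb1 tumours, Ghr at 0.0991, Jak2 at 0.446, Bcl6 at 0.299 and Socs2 at 0.0231, and in the Ha-ras tumours Stat5a at 0.0993 and Cux2 at -0.0654 and -0.0748. In the difference they were Socs2 at -0.057, -0.0505 and -0.292, and between controls Jak2 at -0.531, Bcl6 at -0.11, Stat5b at 0.0633 and Socs2 at -0.0684 and -0.0346. Between tumours they were Socs2 at -0.125 and -0.0043. On the numbered arrays alone, with and without the replicate block, Stat5b was at 0.0412 and Bcl6 at 0.0838 in the Ctnnb1 tumours. Repeated quantile normalization put Cux2 at -0.049 between controls. Array weights put Socs2 at -0.0585 in the difference, Stat5b at 0.184 and Cux2 at -0.0058 between controls, and Cish at 0.0889 between tumours.

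Without 1 array each, signs turned within these ranges, none of them a call. In the Ctnnb1 tumours Stat5b ran from -0.34 to 0.157 and Cish from -0.25 to 0.418. In the Ha-ras tumours Stat5a ran from -0.214 to 0.0207, Socs3 from -0.29 to 0.0186 and Bcl6 from -1.31 to 0.117. In the difference Stat5b ran from -0.0137 to 0.484, Socs2 from -0.411 to 0.437 and Bcl6 from -0.615 to 0.81. Between controls Jak2 ran from -0.0307 to 0.131, Stat5b from -0.284 to 0.213 and Cux2 from -0.0483 to 0.0788. Between tumours Socs3 ran from -0.0077 to 0.311 and Cish from -0.65 to 0.405. The cause was not tested. The number of arrays limits the precision.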

Other observations

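Acute phase genes, which STAT3 drives in hepatocytes, were measured by 20 probe sets, 1 per gene. In the Ha-ras tumours 1 rose and 5 fell, and in the Ctnnb1 tumours 1 rose and 1 fell. Over all genes 7.21% were higher and 6.33% lower in the Ha-ras tumours, and 6.07% higher and 5.97% lower in the Ctnnb1 tumours. Lcn2, the gene of the siderophore-binding protein lipocalin 2, rose in both, by 2.64 in the Ha-ras tumours (limma adjusted p = 0.0167) and by 2.96 in the Ctnnb1 tumours (limma adjusted p = 0.00407). The call in the Ha-ras tumours was lost without untreated control 2 or Ha-ras tumour 1 (limma adjusted p 0.0752 and 0.0875). Hamp, the gene of the iron hormone hepcidin, fell by 3.20 in the Ctnnb1 tumours (limma adjusted p = 0.0102). In the Ha-ras tumours Hamp fell by 2.86 (limma adjusted p = 0.037), a call lost without untreated control 1, 2 or 3 or Ha-ras tumour 1 or 2 (limma adjusted p 0.0718 to 0.183). The differences between the tumour types were 0.32 for Lcn2 and -0.34 for Hamp, and neither passed. Orm2 was the only gene of the list whose changes differed, by 4.74 (SE 1.10, limma adjusted p = 0.0175). It fell by 2.76 in the Ha-ras tumours (limma adjusted p = 0.0383). Directly between the tumours 2 of the 20 were higher and 4 lower in the Ctnnb1 tumours, beside 7.21% and 7.9% of all genes. Orm2 was higher there by 3.62 (limma adjusted p = 0.00207).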
